A study of Rattus norvegicus with 3 samples.

Results

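The genes of MHC antigen presentation were followed on 3 arrays of rat vestibular nuclei, brainstem nuclei in which input from the balance organs first arrives. The group comprised 10 genes, found through the RefSeq accession of each probe, out of 8899 genes that could be named this way, and they were covered by 15 of the 41012 probes. Probes that could not be named this way were not searched. Class II was represented by Cd74, RT1-Da, RT1-Db1 and RT1-Ba on 7 probes. Class I was represented by RT1-S3, RT1-A2, B2m, Tap1, Psmb8 and Psmb9 on 8 probes. The study concerns vestibular compensation, the recovery of balance after the loss of the labyrinth on 1 side. The groups were a control with sham operation, the nuclei of the operated side 1 day after left labyrinthectomy, and the same side 7 days after it. The rats were male, adult and of the Sprague-Dawley stock, weighed 200 to 250 g and carried no engineered allele named in the labels, and the labels' protocols name 3 rats per group because the nuclei of a lone rat gave too little RNA. Each group had 1 array, which reads as tissue pooled over the 3 rats. The protocol text calls the controls normal, the sample label names a sham operation, and they are called sham here.

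MHC molecules carry peptides to the cell surface, where T cells inspect them. Class I molecules consist of a heavy chain and beta-2-microglobulin, are found on most cells and load peptides that the proteasome cuts in the cytosol and the TAP transporter moves into the endoplasmic reticulum. Class II molecules consist of an alpha and a beta chain, are made mainly by professional antigen-presenting cells and are held by the invariant chain until they meet peptides in endosomes. In the brain class I is low on neurons, and class II is found mainly on microglia and on macrophages at the borders and vessels. In rats the whole region is called RT1, with RT1-D as the counterpart of human HLA-DR and RT1-B of HLA-DQ.

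Values are processed intensities, the background-subtracted brightness that the scanner software reports. A level is the log2 intensity minus that of the array's 75th percentile, which was 5692 for sham, 5242 at day 1 and 5676 at day 7, and a log2 fold is the difference of 2 levels. No array was repeated, so no value has an error from animals, dissection or labelling, and no test was made. The scanner software's own error estimate was 10.0% to 23.8% of the intensity for the member probes that were well above background, and for Tap1 in sham, which was not. Across all named genes with 2 measured probes, the log2 folds of those 2 probes differed by a median of 0.34 (90th percentile 1.29) at day 1 against sham. The dimmest probe that counted as well above background had an intensity of 66.9 in sham, 109 on the day 1 array and 122 on the day 7 array, so a dim member could pass in sham and miss the mark after surgery. A gene is given by the probe with the highest mean level unless another is named, and it is called measured in a comparison where that probe passed on both arrays without saturation. All 3 arrays lay on 1 slide, and slide position cannot be told apart from group. Of the marker lists for brain tissue, all 6 named neuron markers, all 5 astrocyte markers and all 5 oligodendrocyte markers were well above background on every array, and no marker specific to the vestibular nuclei was examined. The RT1 genes form a family of similar copies, and how far a probe of one also binds transcripts of another was not tested. Fewer cells of a type and less RNA per cell cannot be told apart in bulk tissue.

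The class II genes did not move together. Cd74 and RT1-Da were lower at day 1 than in sham and came back toward sham at day 7, whereas RT1-Db1 was higher at both times. RT1-Ba was not well above background on any array. The promoters of the 3 measured class II genes are shown because these genes share control elements across mammals while their RNA differed in direction here. The RefSeq promoter table of the GRCr8 assembly held all 10 members, each as a window of 250 bases before and 50 bases after the start. The windows below read 5′ to 3′ on the gene's own strand, and capitals mark the letters TAGCAAC, the core of the X box bound by the RFX complex, and ATTGG, the core of the Y box bound by NF-Y, on either strand.
Cd74, GRCr8 chr18:56526956-56527255, plus strand: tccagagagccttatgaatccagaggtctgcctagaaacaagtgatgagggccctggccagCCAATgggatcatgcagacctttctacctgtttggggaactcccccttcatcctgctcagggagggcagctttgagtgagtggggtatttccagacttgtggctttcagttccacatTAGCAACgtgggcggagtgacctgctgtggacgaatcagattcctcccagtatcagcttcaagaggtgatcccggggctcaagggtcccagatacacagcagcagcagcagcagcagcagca
RT1-Da, GRCr8 chr20:4515165-4515464, plus strand: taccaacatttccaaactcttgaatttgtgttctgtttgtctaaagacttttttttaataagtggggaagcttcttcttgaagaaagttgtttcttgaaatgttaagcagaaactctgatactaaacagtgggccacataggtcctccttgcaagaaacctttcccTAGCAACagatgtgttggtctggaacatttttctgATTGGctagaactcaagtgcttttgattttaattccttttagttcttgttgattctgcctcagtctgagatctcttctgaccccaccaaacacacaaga
RT1-Db1, GRCr8 chr20:4560113-4560412, minus strand: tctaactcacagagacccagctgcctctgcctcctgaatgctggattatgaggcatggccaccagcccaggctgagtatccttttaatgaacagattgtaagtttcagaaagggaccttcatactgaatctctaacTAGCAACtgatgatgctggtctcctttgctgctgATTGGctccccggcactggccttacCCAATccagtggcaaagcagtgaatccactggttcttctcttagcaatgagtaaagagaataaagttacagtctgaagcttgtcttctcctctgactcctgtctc

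TAGCAAC was found in 3 of the 4 class II windows (Cd74, RT1-Da and RT1-Db1), in 0 of the 6 class I windows and in 3.58% of 33469 promoter windows of the same length. In RT1-Da it began at base 167 and the ATTGG on the same strand at base 202, which is 35 bases further on. In RT1-Db1 the same letters began at bases 137 and 171, with 34 bases between the starts. Of all 33469 windows, 1 had the letters at a distance of 35, which is RT1-Da itself, and 2 at a distance of 34, of which 1 is RT1-Db1. Both distances were taken from these members, so the counts do not test whether the spacing is unusual. In Cd74 the letters TAGCAAC began at base 179 and the only ATTGG lay upstream on the other strand, at bases 62 to 66. The RT1-Ba window, not shown, held tggcaac upstream of its ATTGG on the same strand. These letters differ from TAGCAAC by a single letter. Variants were not searched in any window, so the counts of TAGCAAC and of the distances cover only the exact letters. ATTGG alone was common, with 4 of 4 class II windows, 5 of 6 class I windows and 37.5% of all windows. These letters were chosen with the sequences in view, no match overlapped another, and a match is a description of the window and not a measured site.

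Cd74, the invariant chain that guards and escorts class II molecules, had an intensity of 3812 in sham, 383.9 at day 1 and 2702 at day 7. The day 1 array stood alone at the low end. The day 1 level was 3.19 log2 units below sham, a log2 fold of -3.19 or 9.15-fold lower. Day 7 was at -0.49 relative to sham and at 2.70 relative to day 1 (6.5-fold higher). The scanner error of the Cd74 spot was 11.6% on the day 1 array and 10.0% on both others, and Cd74 had no further probe among those named through RefSeq.

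RT1-Da, the alpha chain of the RT1-D molecule, had an intensity of 600.1 in sham, 186.4 at day 1 and 418.2 at day 7 by its brighter probe. Relative to sham its log2 fold was -1.57 at day 1 and -0.52 at day 7, and day 7 was above day 1 by 1.05, so its order over the arrays was that of Cd74 at a smaller size. The dimmer RT1-Da probe gave 128.9 in sham, where it was well above background, and 57.01 at day 1 and 76.25 at day 7, where it was not. This second probe therefore gives only a bound, at least 1.09-fold lower at day 1 and at least 1.06-fold lower at day 7 than in sham.

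RT1-Db1 encodes the beta chain that pairs with the RT1-Da product. Its brightest probe had an intensity of 2029 in sham, 3820 at day 1 and 5386 at day 7, and the next probe had 2024 in sham, 2843 at day 1 and 3517 at day 7. Both probes were lowest in sham and highest at day 7. The log2 folds of the brightest probe were 1.03 at day 1 and 1.41 at day 7 against sham, and those of the next were 0.61 and 0.80. The fold of the brightest probe at day 1 lay at the edge of 2-fold and was under it after quantile normalization, array median scaling and without scaling. The remaining RT1-Db1 probe, at 16.21 in sham, 23.1 at day 1 and 27.03 at day 7, was not well above background on any array, so 2 of 3 probes carried a value. The 2 chains of the same molecule thus lay on opposite sides of sham at both times.

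RT1-Ba, the alpha chain of the RT1-B molecule, was at 24.72 in sham, 25.25 at day 1 and 30.57 at day 7. None of these was well above background, and no fold is given. RT1-Bb, its beta-chain partner, was not a member and is given because the chains act as a pair. One RT1-Bb probe was not well above background in sham (69.38) and was at 162.4 at day 1 and 253.1 at day 7, at least 2.54-fold and at least 3.66-fold higher than sham. The other had 316.6 in sham and was not well above background at day 1 (23.91) or day 7 (27.18), at least 2.68-fold and at least 2.60-fold lower. The 2 probes of RT1-Bb opposed each other, so no direction is given for this gene.

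**Figure D1:**
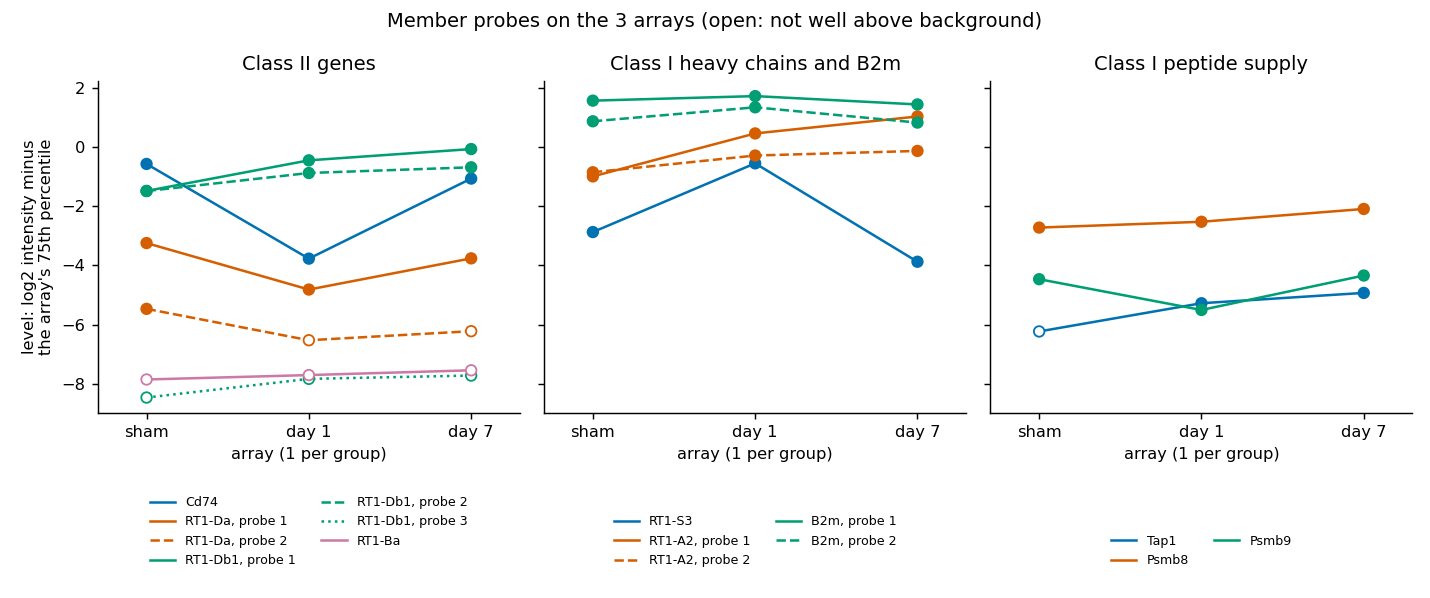
Level of each member probe (log2 intensity minus the array's 75th percentile) on the sham, day 1 and day 7 arrays, 1 array per group, with lines joining values of the same probe and open points where the probe was not well above background. Cd74, RT1-Da and Psmb9 are lowest at day 1 among their measured values, RT1-S3 is highest at day 1, and both measured RT1-Db1 probes and both RT1-A2 probes are highest at day 7; heights of different probes are not comparable.

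Both class I heavy chains among the members were higher at day 1 than in sham, and of the 2 only RT1-A2 was also higher at day 7. RT1-S3 is listed by RefSeq under the mouse synonym H2-T23, a non-classical class I gene, and RT1-A2 is a classical one. Their promoter windows are shown because both were at least 2-fold higher at day 1 by their brightest probe and differed at day 7. Capitals mark ATTGG and the letters GAAANNGAA, a form of the core repeat of the interferon-stimulated response element, on either strand.
RT1-S3, GRCr8 chr20:2675278-2675577, plus strand: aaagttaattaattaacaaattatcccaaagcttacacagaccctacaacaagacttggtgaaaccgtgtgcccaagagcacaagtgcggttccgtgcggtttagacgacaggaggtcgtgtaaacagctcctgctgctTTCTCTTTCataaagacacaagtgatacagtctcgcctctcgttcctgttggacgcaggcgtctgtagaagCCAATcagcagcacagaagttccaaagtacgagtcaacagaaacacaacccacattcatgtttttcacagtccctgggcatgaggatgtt
RT1-A2, GRCr8 chr20:4872621-4872920, plus strand: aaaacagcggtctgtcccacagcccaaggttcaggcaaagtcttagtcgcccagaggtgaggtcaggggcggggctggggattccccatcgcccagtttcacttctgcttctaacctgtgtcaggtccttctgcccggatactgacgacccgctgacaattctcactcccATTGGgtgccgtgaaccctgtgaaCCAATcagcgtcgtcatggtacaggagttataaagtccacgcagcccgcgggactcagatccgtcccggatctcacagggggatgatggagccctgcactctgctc

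GAAANNGAA was found in 4 of 6 class I windows (RT1-S3, B2m, Tap1 and Psmb8), in 0 of 4 class II windows and in 9.71% of all 33469 windows. The RT1-S3 window held it at bases 140 to 148 on the other strand. The RT1-A2 window held no match to these letters, and it had ATTGG at bases 171 to 175 and, on the other strand, at bases 195 to 199. The same window held tttcacttc, which on the other strand reads with GAA before GAAA, an order that GAAANNGAA leaves out. That order was not searched in any window, so the counts cover only the form GAAANNGAA. Nothing about the binding of a factor follows from a match or its absence.

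RT1-S3 had an intensity of 776.1 in sham, 3560 at day 1 and 386.5 at day 7. The day 1 array was the highest and the day 7 array the lowest. Relative to sham the log2 fold was 2.32 at day 1 (4.98-fold higher) and -1.002 at day 7, and relative to day 1 the day 7 level was at -3.32 (9.97-fold lower). Only 1 probe named through RefSeq, on 1 spot, measured this gene. The day 7 value against sham lay on the 2-fold mark and was under it when the 75th percentile was taken over probes well above background on all arrays, and with another background correction (normexp).

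RT1-A2 had an intensity of 2850 in sham, 7167 at day 1 and 11533 at day 7 by its brighter probe, against 3142 in sham, 4276 at day 1 and 5153 at day 7 by the other. The first was the brighter by its mean over the arrays but the dimmer in sham. Both probes rank the arrays in the order sham, day 1, day 7, and they differed in size. The log2 folds of the brighter probe were 1.45 at day 1 and 2.02 at day 7 against sham, and those of the other were 0.56 and 0.72.

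B2m, the light chain shared by all class I molecules, stayed close to sham. Its brighter probe had an intensity of 16755 in sham, 17146 at day 1 and 15279 at day 7, with log2 folds of 0.15 at day 1 and -0.13 at day 7 against sham. Its other probe lay on 10 spots, of which 10, 7 and 8 were kept in that order, and gave mean intensities of 10352 in sham, 13203 at day 1 and 10010 at day 7. The log2 fold of this probe was 0.47 ± 0.03 at day 1 and -0.04 ± 0.03 at day 7 against sham (SE from the spots alone). This SE covers repeat spots within an array only and not the tissue, and the brighter probe gave a smaller fold at day 1, so the B2m spots do not place day 1 apart from sham. No probe of B2m was past 2-fold.

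The genes that supply class I with peptides were dim and differed among themselves. Tap1, a subunit of the peptide transporter, was not well above background in sham (76) and was at 135.4 at day 1 and 186.6 at day 7, at least 1.93-fold and at least 2.46-fold higher than sham. Psmb8, an immunoproteasome subunit that replaces a standard one under interferon, had 861.3 in sham, 908.9 at day 1 and 1327 at day 7, with log2 folds of 0.20 and 0.63 against sham. Psmb9, the immunoproteasome subunit that often accompanies Psmb8, had 257.7 in sham, 115.7 at day 1 and 280 at day 7. Its log2 fold relative to sham was -1.04 at day 1 and 0.12 at day 7, and day 7 was above day 1 by 1.16. The day 1 spot of Psmb9 was near the lowest intensity counted as measured and had a scanner error of 22.3%, and its fold at day 1 was -0.57 with normexp. The sign of its day 7 fold relative to sham turned with the scaling, at -0.065 after quantile normalization, -0.134 after cyclic loess and -0.003 after array median scaling.

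At day 1 against sham, 6 of the 8 measured members were at least 2-fold different, 3 higher (RT1-S3, RT1-A2 and RT1-Db1) and 3 lower (Cd74, RT1-Da and Psmb9). Of all 6292 genes measured in that comparison 12.6% were past 2-fold, 8.26% higher and 4.37% lower. That split of 520 higher and 275 lower depended on the scaling, with 424 and 331 after quantile normalization, 429 and 335 after cyclic loess, 439 and 343 after array median scaling and 412 and 356 without scaling. For day 7 against sham, 3 of 8 were past 2-fold, with RT1-A2 and RT1-Db1 higher and RT1-S3 lower, beside 16.9% of 6261 genes (11.1% higher and 5.73% lower). The all-gene calls there were 698 higher and 359 lower, against 514 and 417 after cyclic loess and 538 and 454 after array median scaling. Between day 7 and day 1, 4 of 9 were past 2-fold, with Cd74, Psmb9 and RT1-Da higher at day 7 and RT1-S3 lower, beside 11.9% of 6142 genes (6.56% higher and 5.32% lower), where 403 higher and 327 lower became 519 and 268 without scaling. Both comparisons with sham share the sham array. The members were chosen with earlier results of these data known, so the all-gene shares do not test whether the group stands apart. Under all 7 ways of background correction and scaling, the members past 2-fold at day 1 were Cd74, RT1-Da, RT1-S3 and RT1-A2. At day 7 relative to sham they were RT1-Db1 and RT1-A2, and between day 7 and day 1 Cd74 and RT1-S3. Each way used the same probe per gene, chosen by its mean over these same arrays, so the choice of probe is not covered. Against sham the other RT1-A2 probe was at 0.56 at day 1 and 0.72 at day 7, under 2-fold. The next RT1-Db1 probe was at 0.61 and 0.80, also under it. The split at day 1 was 2 higher and 3 lower after quantile normalization, array median scaling or no scaling, and 2 higher and 2 lower with normexp. For day 7 against sham it was 2 higher and 0 lower with the 75th percentile over probes well above background on all arrays and with normexp. Between day 7 and day 1 it was 2 higher and 1 lower with cyclic loess and 1 higher and 1 lower with normexp.

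**Figure D2:**
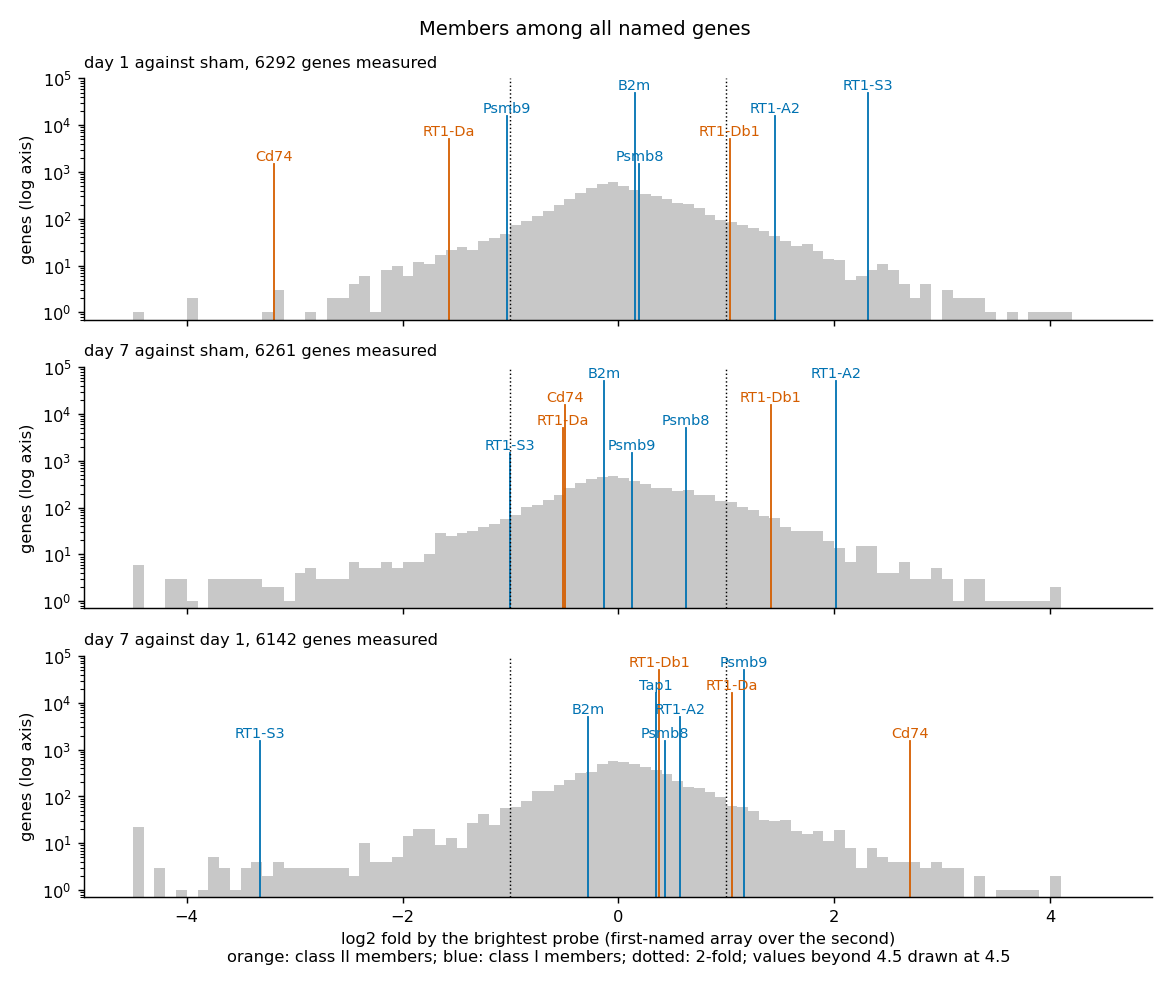
Histogram of log2 folds of all named genes measured in each comparison (log count axis), with a line at the fold of each measured member by its brightest probe, class II in orange and class I in blue. At day 1 against sham Cd74 lies at -3.19 and RT1-S3 at 2.32, and B2m and Psmb8 lie near the centre.

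Set against each other, the class I members had a median log2 fold of 0.20 over 5 measured genes at day 1 against sham, and the class II members one of -1.57 over 3. All measured genes had a median of 0.001. Class I was thus above class II by 1.76. The day 7 medians relative to sham were 0.12 for class I and -0.49 for class II, a difference of 0.62. Relative to day 1 they were 0.39 over 6 class I genes and 1.05 over 3 class II genes, a difference of -0.66. With class I restricted to RT1-S3, RT1-A2 and B2m the difference at day 1 was 3.02, and among members brighter than the median detected probe it was -0.23, with only RT1-A2 and B2m against RT1-Db1 left. The class II median at day 1 is the value of RT1-Da, with Cd74 below it and RT1-Db1 above sham.

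Among other class I and class I-like heavy chains, 21 of 41 had a named probe and 17 were measured at day 1 against sham. None was at least 2-fold higher, 1 was lower, and the median log2 fold was 0.07, beside 8.26% higher and 4.37% lower among all measured genes. The lower one was RT1-T18, a non-classical gene, at -1.15 on its brighter probe but 0.65 on the dimmer. On the day 7 array 1 of 17 was lower than in sham and 0 were higher, beside 5.73% lower and 11.1% higher among all measured genes. The lower one was Azgp1 (-1.32), a secreted class I-like protein, which was at least 3.51-fold lower at day 1. Compared with day 1, 1 of 16 was higher at day 7, Procr (1.45), the class I-like protein C receptor, beside 6.56% of all measured genes. RT1-CE3, a class I gene, was at -0.64 at day 1 and at least 3.37-fold lower than sham at day 7. The RT1-CE genes, class I genes of the same region grouped here after their values were seen, had 8 measured at day 1, of which 6 were above 0, with log2 folds from -0.64 to 0.68. For day 7 relative to sham 6 of 7 were above 0, from -0.04 to 0.83. RT1-CE4 had an intensity of 4772 in sham, 7055 at day 1 and 8432 at day 7 by its brighter probe, with log2 folds of 0.68 and 0.83 against sham. Its dimmer probe was at 0.14 and 0.30. RT1-CE1, at 15694 in sham, 19912 at day 1 and 27522 at day 7, showed the same order of arrays as RT1-A2.

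Genes that cut, carry or load class I peptides lay mostly below sham at day 1, by less than 2-fold. Of 11 measured genes 0 were past 2-fold, 1 was above 0, and the median log2 fold was -0.33 at day 1 against sham. Among all genes measured in that comparison 12.6% were past 2-fold, and the median was 0.001. Tap2, the partner of Tap1, was the one of the 11 above 0, at 0.58 at day 1 and 0.68 at day 7. The chaperone Canx was at -0.70, the disulfide isomerase Pdia3 at -0.55 and the proteasome activator Psme1 at -0.53. On day 7 the median relative to sham was 0.04, and Psme3 (-1.07), a nuclear proteasome activator not dedicated to antigen presentation, was the only one of 11 past 2-fold. Of all measured genes 16.9% were past 2-fold there, with a median of 0.048. Between day 7 and day 1 the median was 0.28 with 0 of 11 past 2-fold, and Calr, a chaperone of the peptide-loading complex, was highest at 0.90. All measured genes had a median of 0.04 in that comparison, with 11.9% past 2-fold.

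Of the other class II chains and processing genes, 8 of 16 named were measured at day 1 against sham, 0 were past 2-fold, 2 were above 0, and the median log2 fold was -0.27. Among all genes measured in that comparison 12.6% were past 2-fold, and the median was 0.001. Ifi30, the thiol reductase of the endosome, was at -0.72, the protease Lgmn at -0.47 and RT1-DMa, a chain of the class II peptide editor, at -0.42. By day 7 the median relative to sham was -0.17 with 0 of 8 past 2-fold, and relative to day 1 it was 0.04 with 0 of 9 past 2-fold, RT1-DMa being highest at 0.88. The shares of all measured genes past 2-fold were 16.9% against sham and 11.9% against day 1, with medians of 0.048 and 0.04. Besides RT1-Bb, whose probes are given above, genes with only a bound relative to sham were RT1-DOb, at least 1.23-fold lower at day 1 and at least 1.19-fold lower at day 7 than sham, and the costimulatory gene Cd80, at least 4.08-fold higher at day 7. Ciita, the master coactivator of class II transcription, was not well above background on any array (16.61 in sham, 95.38 at day 1 and 93.15 at day 7), so no fold is given. Ctss, the protease that trims the invariant chain, was at -0.20 on its brighter probe and at 0.83 on the dimmer at day 1. Ciita and Ctss were singled out after their values were seen.

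Interferon drives both classes in many cells. Of 13 measured interferon signalling genes, 0 were at least 2-fold higher at day 1 against sham and 2 were lower, Ifit2 (-1.86) and Oas1a (-1.08), with a median log2 fold of 0.08, beside 8.26% higher and 4.37% lower among all measured genes. These counts take each gene's brightest probe. The dimmer probe of Usp18, an interferon-induced protease, was at 2.44 at day 1 and 1.14 at day 7 relative to sham, while its brighter probe was at 0.52 and 0.68. The day 7 array had 4 of 14 higher than sham and 0 lower, with a median of 0.75, beside 11.1% higher and 5.73% lower among all measured genes and an all-gene median of 0.048. They were the interferon gamma receptor Ifngr1 (3.80), the kinase Jak2 (1.25, on 10 spots), the chemokine Cxcl9 (1.13) and Rsad2 (1.03), and Irf7 was at least 3.42-fold higher. Compared with day 1, 3 of 12 were higher at day 7, Ifit2 (1.90), Irf9 (1.49) and Irf1 (1.05), and 0 were lower, with a median of 0.85, beside 6.56% higher and 5.32% lower among all. Irf1, an activator of class I and Psmb9, was at 453.5 in sham, 362.1 at day 1 and 812 at day 7.

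**Figure D3:**
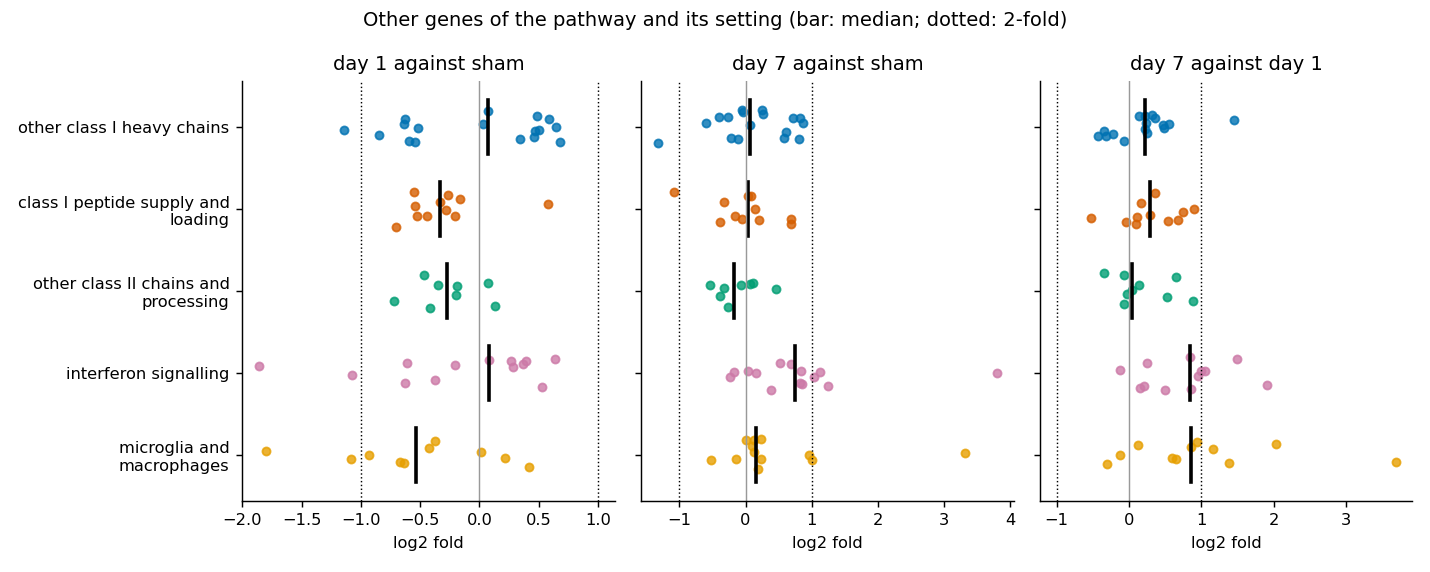
Log2 folds of the measured genes of 5 lists in the 3 comparisons, 1 point per gene by its brightest probe, with a bar at each list's median and dotted lines at 2-fold. The interferon median is 0.08 at day 1 and 0.75 at day 7 against sham, and the microglia and macrophage median is -0.54 at day 1 and 0.16 at day 7.

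Most markers of microglia and macrophages, which carry class II in brain, lay on the same side of sham as Cd74 at day 1. Of 10 measured microglia and macrophage markers 2 were at least 2-fold lower at day 1 against sham, Tlr2 (-1.80) and Aif1 (-1.08), 0 were higher, 3 were above 0, and the median log2 fold was -0.54, beside 4.37% of all measured genes lower. The phagocyte marker Cd68 was at least 3.19-fold lower and Itgam at least 1.26-fold lower, while Cx3cr1 was at least 3.78-fold higher. The day 7 array had 2 of 12 higher than sham, the complement gene C1qc (3.31, and 1.03 by another probe) and the adaptor Tyrobp (1.01), beside 11.1% of all genes, and the median was 0.16. Compared with day 1, 4 of 11 were higher at day 7 and 0 lower, with a median of 0.86, beside 6.56% of all genes higher and 5.32% lower. The summed level of 13 such markers, in units of the array's 75th percentile, came to 12.5 on the sham array, 9.26 on that of day 1 and 16.3 on that of day 7, and none of the 13 was below background on all arrays. Cd74 had a lower log2 fold at day 1 than any of the 10 measured markers. The part of these cells in the class II values was not tested.

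Markers of other cells that present antigen or are shown it were dim. The summed level of 7 T-cell markers came to 0.223 on the sham array, 0.239 at day 1 and 0.320 at day 7, with Cd4 and Cd2 not well above background on any array. Cd8a was at 1.25 at day 1 and at least 1.18-fold lower at day 7 than sham, and Cd8b was at 0.83 and 1.08. Cd5 was not well above background at day 1 and was at 2.68 at day 7 relative to sham. Of the signalling chains of the T-cell receptor complex, Cd3d was at -0.16 and 0.03, and Cd3g was at least 1.42-fold lower at day 1 and at -0.06 at day 7. Dendritic-cell markers, of which 2 were named, summed to 0.073 in sham, 0.123 at day 1 and 0.158 at day 7. The only named B-cell marker was at 0.127 in sham, 0.134 at day 1 and 0.155 at day 7, and 3 neutrophil markers summed to 0.048, 0.019 and 0.173 in that order. Choroid plexus markers (5 genes, Kl and Clic6 not well above background on any array) summed to 0.693 in sham, 0.533 at day 1 and 1.24 at day 7, and the 5 oligodendrocyte markers to 22.5, 19.4 and 15.5. The part of these cells in the members' values was not tested. The perivascular macrophage markers looked for (Mrc1, Cd163 and Lyve1) had no probe named through RefSeq, so these cells could not be followed.

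**Figure D4:**
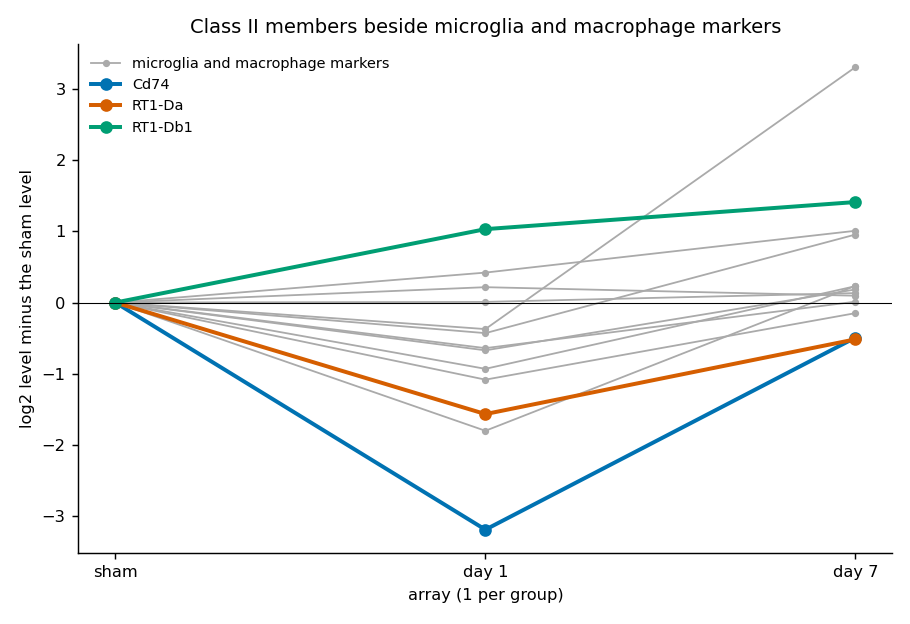
Level of the measured class II members minus their sham level (log2) at sham, day 1 and day 7, beside the microglia and macrophage markers well above background on all 3 arrays (grey), each by its brightest probe. Cd74 reaches -3.19 at day 1, below every marker drawn, and RT1-Db1 lies above 0 at both times.

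Likeness of pattern was measured as the Euclidean distance between pairs of log2 folds (day 1 and day 7, each against sham) among 3439 named genes. These were measured on all 3 arrays and brighter than the median detected probe on at least 1 of them. Genes with placeholder names (LOC or RGD numbers) were left out. Nearest to Cd74 were the complement protein C3 (-2.85 and -0.22, distance 0.44), the tetraspanin Cd82 (-4.00 and -0.29, distance 0.83) and the cytochrome Cyp4f5 (-2.29 and 0.10, distance 1.08). Nearest to RT1-S3 were the protocadherin Pcdhga9 (2.31 and -0.85, distance 0.15), the FK506-binding protein Fkbp1b (2.24 and -0.72, distance 0.30) and the steroid dehydrogenase Hsd3b7 (2.70 and -1.05, distance 0.39). With 3 arrays such likeness is a description only. No other member was among these neighbours, but members too dim for the search, such as Tap1 and RT1-Ba, could not be.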

How the data were processed

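RNA of rat vestibular nuclei was measured on 3 one-colour (Cy3) Agilent arrays, 1 per group. Per the file headers, the deposited files hold a processed intensity per spot from Agilent Feature Extraction 10.7.3.1, background-subtracted and detrended but not scaled between arrays, with spot flags for detection, saturation and outliers. The authors' series table held the same intensity within 0.1 percent for 99.7% of values per array. Spots with outlier flags were left out, spots of a probe were averaged as log2, and the array's 75th percentile over non-control spots was subtracted. Names came from RefSeq accessions (GRCr8), which matched 10768 of 41012 probes. A gene was represented by its brightest probe and counted as measured where it passed the detection flag unsaturated on the 2 arrays compared. A gene that passed on 1 array has a bound, set by its dim value or the array's lowest detected intensity, whichever was higher. No test was possible with 1 array per group, and 2-fold is the fixed size. Named genes were the members, genes of the pathway lists past 2-fold with up to 4 others per list by size of fold, and the 3 nearest genes to Cd74 and RT1-S3. Members and lists were chosen with earlier results of these data known. The fold functions were tested on simulated data. Tools were Python 3.11.15, pandas 2.3.3 and limma 3.58.1 in R 4.3.3. Alternatives were other scalings, background correction, filters and probe rules.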

Additional observations from a re-analysis of the deposited data

Results flagged for a closer look

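Some members lay on opposite sides of sham at the 2 times, by their brightest probe. RT1-S3 had a log2 fold of 2.32 at day 1 and -1.002 at day 7 against sham. Psmb9 was at -1.04 at day 1 and 0.12 at day 7. The Psmb9 value at day 7 was under the typical difference between 2 probes of a gene and turned negative after quantile normalization (-0.065), cyclic loess (-0.134) and array median scaling (-0.003), so its opposite sides hold only under some scalings. B2m was at 0.15 at day 1 and -0.13 at day 7, both under that typical difference too. Its other probe, on 10 spots, was at 0.47 at day 1, above the typical difference of 0.34, and at -0.04 at day 7. With 1 array per time these differences were not tested, and both times share the sham array.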

How the results depend on the processing

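No fold of a single member that was past 2-fold changed sign under the 6 other scalings and background corrections, and 147 of 150 member folds stayed within the tolerance given next. The difference of the class medians was set against the median difference between 2 probes of a gene (0.34 to 0.41), since there are no replicates. It stayed within that distance in 24 of 30 values. Array median scaling, the 75th percentile over probes well above background and no scaling each shift all genes of an array alike. These shifts moved single folds by less than the tolerance, so part of the 147 could not fail. The difference of the class medians could not change under them, so part of the 24 was fixed in advance. At day 1 against sham it was 1.76, but 1.37 with normexp on the spots' medians (chosen after seeing the data, in place of the planned spot means), 1.28 with no filter on dim probes, 3.02 with heavy chains and B2m only, and -0.23, a reversal, among brighter members, where Cd74, RT1-Da and RT1-S3 no longer enter and 2 of 3 members were past 2-fold. At day 7 against day 1 it was -0.66, but -0.24 among brighter members and -1.33 with heavy chains and B2m only. There, 2 members were past 2-fold with normexp and 0 of 3 among brighter members, in place of 4. At day 7 against sham the difference stayed within that distance under every alternative run, and the count of 3 members ran from 2 to 4, with RT1-S3 no longer past 2-fold under 2 scalings or corrections. Leaving the arrays unscaled put the median of all genes at -0.12 at day 1 against sham and at 0.15 between day 7 and day 1, and put 53.6% of all calls at day 1 on the higher side, against 65.4% with the 75th percentile, 56.2% after quantile normalization or cyclic loess and 56.1% after array median scaling. Of folds under 2-fold, that of Psmb9 at day 7 against sham (0.12) turned negative under the last 3. No paired analysis was possible because each group has 1 array. The number of arrays limits the precision, and members near background (Tap1, Psmb9, the second RT1-Da probe) are limited by their signal.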
